A study of Homo sapiens with 6 samples.

Results

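The DNA topoisomerase genes TOP1, TOP1MT, TOP2A, TOP2B, TOP3A and TOP3B were followed by bulk RNA sequencing in U-2 OS, an established line of human osteosarcoma cells. With earlier results of these data known, the 6 genes were taken as the named members of this enzyme family. They were found by gene symbol among 21447 genes in the deposited transcript files, and all 6 were among the 14323 genes that passed the filter on low counts. Unsynchronized cells were either left untreated or collected 24 h after ionizing radiation (IR) at 4 Gy, with 3 libraries in each group, and the labels give all 6 libraries the same line and name no transgene or drug. The methods describe 3 independent samples per group but not whether these were separate cultures or irradiations, so that P values measure the spread between these libraries, which may be partly technical. IR replicate 3 was the deepest library, with 45308792 estimated counts against 18573309 to 22953834 in the other 5. It also stood apart from the other IR libraries, with a chi-square per gene of 28.0 and 31.1 against them, where all other pairs within a group had 3.47 to 9.20. For the same proportional difference this value is larger in a deeper library, so it is not separate from the depth. The file of IR replicate 3 alone carries an added mark in its name, which the sources used here do not explain. Results that rest on this library are given with and without it.

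Topoisomerases relieve the twisting and tangling of DNA that replication, transcription and chromosome segregation create, by cutting the helix, passing DNA through the break and sealing it again. Type IB enzymes (TOP1 in the nucleus, TOP1MT in mitochondria) cut a single strand and let the helix swivel. Type II enzymes (TOP2A, TOP2B) pass a whole duplex through a double-strand break, and type IA enzymes (TOP3A, TOP3B) pass single strands. TOP2A is made mainly in proliferating cells from S phase to mitosis, where it separates sister chromatids and shapes mitotic chromosomes, whereas TOP2B is also made in cells that do not divide. Enzymes of this family that become trapped on DNA are the targets of anticancer drugs such as etoposide (type II) and camptothecin (TOP1).

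The promoters of the type II pair are shown first because these paralogs carry out the same reaction and, of the pair, only TOP2A was called after IR (their values follow). Promoters of 5 of the 6 genes were found by symbol, all but that of TOP1MT. The sequences are the 250 bases before the start of RefSeq's annotation (GRCh38.p14), 5′ to 3′ on the strand of the gene, at chr17:40417897-40418146 (minus strand) for TOP2A and at chr3:25664908-25665157 (minus strand) for the upstream start listed for TOP2B. Capitals mark matches on either strand to CCAAT, written ATTGG on the reverse strand and known as the site of the factor NF-Y, and to TTTGAA, written TTCAAA on the reverse strand and known as the cell cycle genes homology region. No base belongs to more than 1 match.
TOP2A: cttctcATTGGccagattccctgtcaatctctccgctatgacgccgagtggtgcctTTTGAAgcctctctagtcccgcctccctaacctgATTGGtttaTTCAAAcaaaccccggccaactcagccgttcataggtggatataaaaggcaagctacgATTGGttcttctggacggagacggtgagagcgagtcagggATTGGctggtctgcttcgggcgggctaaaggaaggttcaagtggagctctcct
TOP2B: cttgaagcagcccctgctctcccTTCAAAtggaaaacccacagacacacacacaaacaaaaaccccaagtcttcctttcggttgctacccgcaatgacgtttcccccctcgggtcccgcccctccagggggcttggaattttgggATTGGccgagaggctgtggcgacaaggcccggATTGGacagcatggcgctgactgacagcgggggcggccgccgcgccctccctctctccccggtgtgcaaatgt
The TOP2A window held 4 matches to CCAAT and 2 to TTTGAA, the TOP2B window 2 and 1. Of 35116 promoter windows of this length from 27305 genes, 0.874% held 4 or more CCAAT and 1.72% held 2 or more TTTGAA. At least 1 CCAAT was present in 32.0% of all windows and in 64.9% of the 57 windows of a list of genes of G2 and M phase, and at least 1 TTTGAA in 13.3% and 47.4%. Of these 57 windows, 8.77% held 4 or more CCAAT and 14.0% held 2 or more TTTGAA. The windows of TOP1, TOP3A and TOP3B and the downstream TOP2B start held neither motif. A match is a stretch of letters and was not tested as a bound site.

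A stretch of 130 bases in TOP2A is shown next because it is the only part of a short transcript, TOP2A-203 (ENST00000577706), that lies outside the main transcript TOP2A-201 (ENST00000423485). It lies in an intron of TOP2A-201 at chr17:40399132-40399261 (GRCh38, minus strand), so that reads lying wholly within the bases that both share could belong to either transcript.
TOP2A-203: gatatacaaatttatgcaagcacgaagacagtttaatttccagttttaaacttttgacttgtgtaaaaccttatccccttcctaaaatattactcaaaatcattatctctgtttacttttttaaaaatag
TOP2A-203 has 4 exons and 554 bases, is annotated as a retained intron, and shares its other 424 bases with exons 25 to 28 of the 35 exons of TOP2A-201.

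Cell identity and response to IR were checked by marker genes. Mesenchymal markers were abundant in all libraries, with VIM at 1121 to 1476 TPM (the deposited level scaled for length) and SPARC, an extracellular matrix protein, at 1792 to 2022 TPM. The osteoblast factor RUNX2 was at 3.36 to 4.87 TPM, whereas the later osteoblast genes SP7 (0 TPM) and BGLAP (at most 0.387 TPM) and the collagen gene COL1A2 (at most 0.896 TPM) were near absent. Markers of other cells were far below VIM and SPARC. The epithelial gene EPCAM was highest among them at 14.5 to 15.9 TPM, above RUNX2. The blood cell gene PTPRC was at 0.879 to 3.47 TPM, and the T cell and erythroid genes CD3E and HBB were listed at 0. All 8 p53 targets on a list of known members were called higher after IR, where 15.5% of all tested genes were called higher. Among them CDKN1A, which encodes the cell cycle inhibitor p21, had a log2 fold change of 1.53 (SE 0.08).

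TOP2A was lower after IR, with normalised read counts (CPM, counts scaled to a common library size by TMM) of 687, 717 and 779 in the untreated libraries and 546, 484 and 472 in the IR libraries. Every IR library was below every untreated library. The log2 fold change was −0.54 (SE 0.08, 95% CI −0.71 to −0.37), which is 0.688 times the untreated level, with an adjusted P of 0.0013 in edgeR's quasi-likelihood test. Without IR replicate 3 it was −0.51 (adjusted P = 0.00078, edgeR). An exact permutation test of the 3 against 3 values gave P = 0.1, the smallest that this design allows. By P value TOP2A ranked 356 of the 14323 genes, and 4.80% of them had a lower log2 fold change. In bulk RNA, fewer cells that make a transcript and less of it per cell cannot be told apart.

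TOP2B, the paralog, had 163, 175 and 186 CPM in the untreated libraries and 168, 163 and 142 CPM after IR. These ranges overlapped, with IR replicate 3 lowest, and the log2 fold change of −0.15 (95% CI −0.33 to 0.03) did not pass the test (edgeR, adjusted P = 0.190).

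TOP1, the main enzyme that relaxes supercoils ahead of RNA polymerase, had 127, 128 and 139 CPM in untreated and 120, 118 and 105 CPM in IR libraries. The groups did not overlap, but the log2 fold change of −0.20 (95% CI −0.37 to −0.04) stayed above the threshold, with an adjusted P of 0.0655 by edgeR. It passed without IR replicate 1 (−0.25, adjusted P = 0.0453) and in the DESeq2 Wald test (−0.21, adjusted P = 0.0438). TOP1MT, its mitochondrial counterpart, had 85.4, 89.3 and 96.4 CPM and, after IR, 99.1, 101 and 93.1 CPM. Its groups overlapped through IR replicate 3, and its log2 fold change was 0.11 (95% CI −0.04 to 0.26, adjusted P = 0.253 by edgeR).

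TOP3B, which acts on both DNA and RNA, rose slightly, from 36.3, 37.3 and 41.9 CPM to 43.1, 48.0 and 44.7 CPM. All IR libraries were above all untreated libraries, with a log2 fold change of 0.23 (95% CI 0.06 to 0.41). The adjusted P of 0.0498 (edgeR) was just inside the threshold of 0.05, and was above it in 18 of 23 other ways of processing with the same sign, for example 0.0671 by DESeq2. Leaving out any 1 library other than untreated replicate 3 raised it to between 0.0579 and 0.180. TOP3A, which dissolves crossed-over DNA together with BLM helicase, had 54.4, 56.3 and 52.1 CPM untreated and 46.7, 48.1 and 57.9 CPM after IR. Here IR replicate 3 was the highest of all 6 libraries and the other 2 IR libraries the lowest, and the log2 fold change was −0.09 (95% CI −0.29 to 0.11, adjusted P = 0.484 by edgeR). Without IR replicate 3 it was −0.21 with an adjusted P of 0.0380.

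In all, 1 of the 6 genes was called higher and 1 lower, and 3 had groups that did not overlap. Over all tested genes, 30.1% were called, 15.5% higher and 14.5% lower, and 47.1% had groups that did not overlap, so that the share of members called was near that of all genes. The median log2 fold change of the members was −0.12, against 0.01 over all tested genes. Without IR replicate 3, 0 members were called higher and 2 lower (TOP2A and TOP3A), where 26.1% of all tested genes were called.

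**Figure D1:**
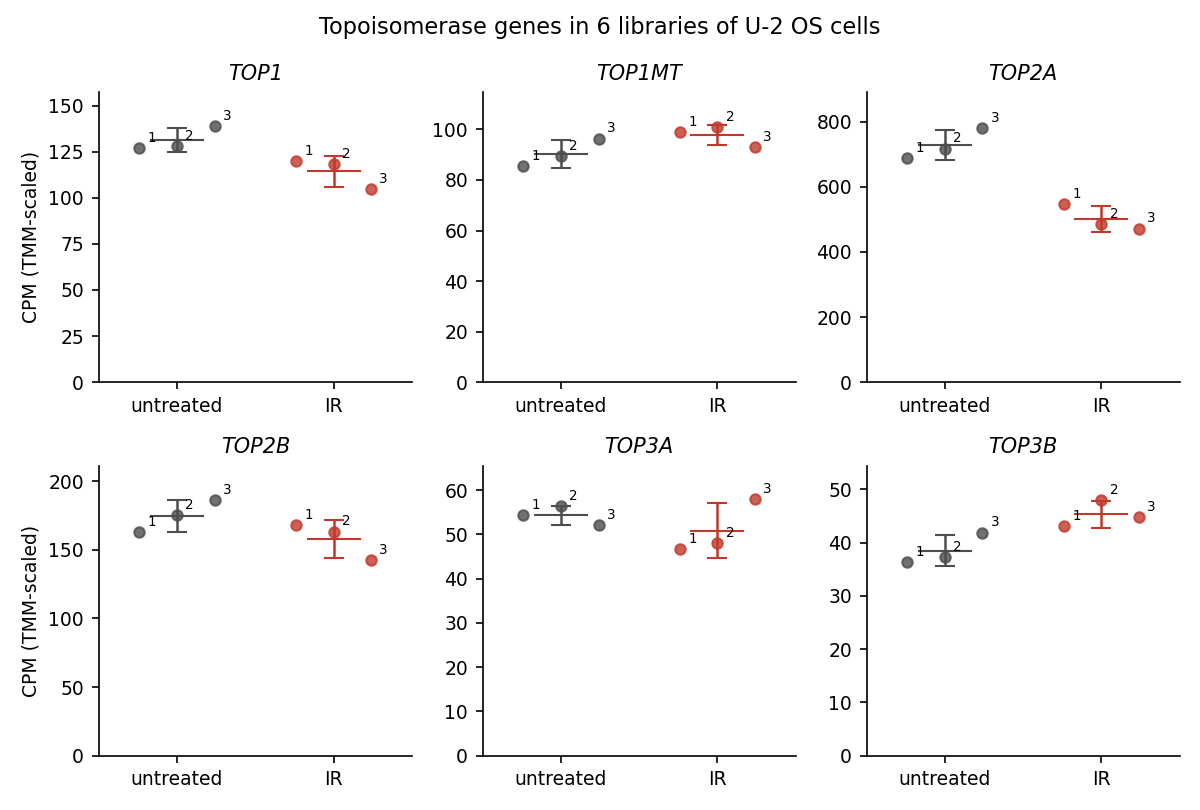
Normalised read counts (CPM, TMM-scaled, linear axes from 0) of the 6 topoisomerase genes in each library, with bars for the mean and SD of 3 libraries and small numbers for the replicate. TOP2A falls from 687 to 779 CPM in untreated cells to 472 to 546 CPM after IR, a larger step than in any of the other 5 genes.

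TOP2A was then tested with the effective length, the length of a transcript as kallisto adjusted it for the fragments of each library. It was more than a count of the positions at which a fragment could start, since it exceeded the length of TOP3A-201, with 7328 to 7915 against 6596 bases, and of 24.2% to 29.1% of all transcripts. Whether a correction for sequence bias was part of it is not given in the sources used here. Dividing by the mean effective length of the gene, with its transcripts weighted by TPM, gave a log2 fold change of −0.42 (95% CI −0.72 to −0.12) with an adjusted P of 0.0701 by edgeR. The direction was kept but the call was lost, as it was for TOP3B (log2 fold change 0.08, adjusted P = 0.770), and 0 of the 6 members were called by edgeR (1, TOP2A, at an unadjusted P under 0.05). Across all genes, 11.9% were called with this offset.

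The mean effective length of TOP2A itself was 2993, 2809 and 2378 bases in the untreated libraries and 2512, 2433 and 2518 bases in the IR libraries. The groups overlapped, with untreated replicates 1 and 2 above all others, and the difference of −0.13 on the log2 scale had P = 0.4 in an exact two-sided permutation test. Over all tested genes the median size of this shift was 0.08, and 67.9% had a smaller one than TOP2A. The SD was 0.17 among untreated libraries and 0.03 among IR libraries, so the shift was smaller than the spread between untreated replicates.

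The transcripts behind this mean differed greatly in length. TOP2A-201, with 5695 bases and an effective length of 4181 to 4271 bases, held 95.0% to 97.1% of the TOP2A counts in each library, but 53.8% to 68.8% of its TPM. TOP2A-203, with an effective length of 245 to 264 bases, held 1.88% to 4.61% of the counts and 18.9% to 44.5% of the TPM. In estimated counts, TOP2A-203 had 323, 499 and 733 in the untreated libraries and 473, 410 and 402 in the IR libraries, the highest value being in untreated replicate 3, where the mean effective length was lowest.

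A second short form, TOP2A-202, has 420 bases that all lie within exon 35, the last exon of TOP2A-201. It was listed at 0 counts in 5 libraries and at 301 counts, or 58.0 TPM, in IR replicate 3, where it made up 23.3% of the TPM and 1.41% of the counts of the gene. Its effective length was 271 bases in the libraries where it had no counts and 153 bases in IR replicate 3.

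**Figure D2:**
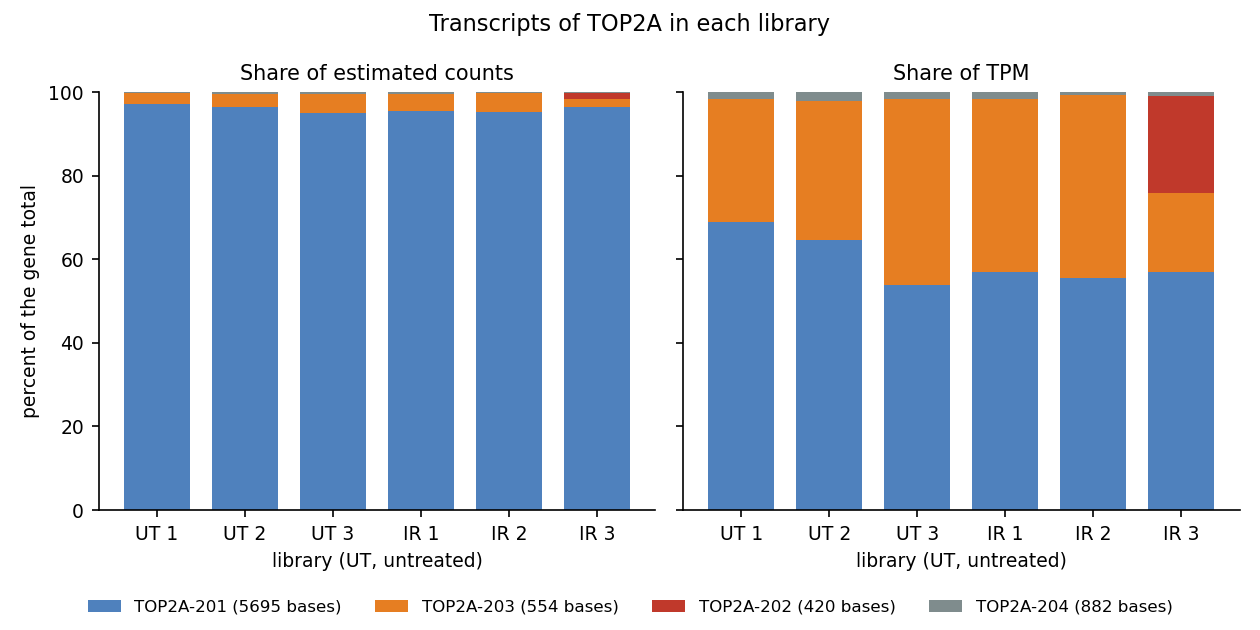
Share of each TOP2A transcript in the gene's estimated counts and in its TPM, in percent, for the 3 untreated (UT) and 3 IR libraries. TOP2A-201 fills at least 95.0% of every bar of counts but as little as 53.8% of a bar of TPM, and TOP2A-202 appears in IR replicate 3 alone.

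Other ways to bring in length moved TOP2A in either direction. Holding the weights of the transcripts at their average, so that only the effective lengths themselves could vary, gave −0.58 (adjusted P = 0.0037, edgeR). Weighting the transcripts by counts gave −0.55 (adjusted P = 0.0056), and the mean effective length then differed by −0.0013 on the log2 scale between the groups. With the counts and the effective length of TOP2A-201 alone the log2 fold change was −0.54 (95% CI −0.76 to −0.32, adjusted P = 0.0131), although the share of all genes called was as low as with the first offset. The annotated length, fixed for each transcript but weighted by the TPM of each library, gave −0.40 (adjusted P = 0.0498, edgeR), close to the first offset. Its mean for TOP2A thus also varied between libraries, with a difference of −0.12 on the log2 scale between the groups. The TPM of TOP2A summed over its transcripts was 292, 327 and 417 in untreated and 270, 231 and 249 in IR libraries, a log2 difference of −0.45. For TOP2A-201 alone it was 201, 212 and 224 TPM against 154, 128 and 142 TPM, a difference of −0.59, with no overlap on either scale.

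**Figure D3:**
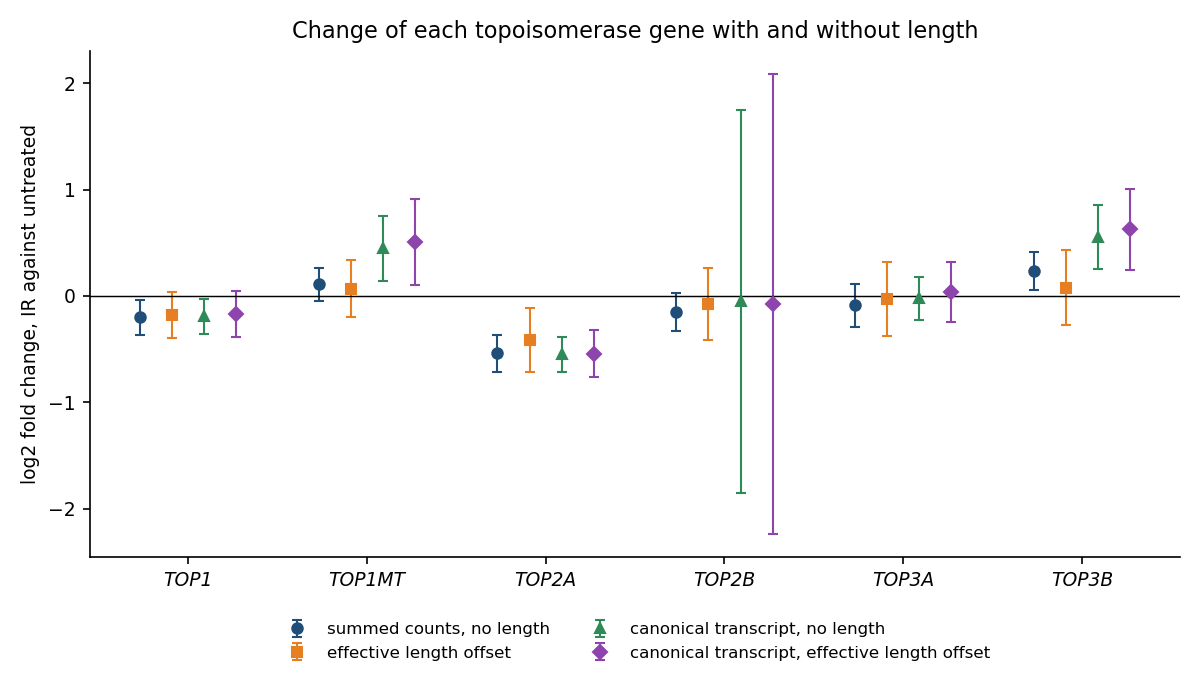
Log2 fold change of each gene after IR with its 95% confidence interval, from counts summed over transcripts or from the canonical transcript alone, each with and without an effective length offset. TOP2A stays between −0.55 and −0.42 in all 4, while the intervals of the canonical TOP2B transcript span more than 3 log2 units.

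GC content moved with the results. Across the 14323 genes, the log2 fold change correlated with the GC content of the transcripts (Pearson r = 0.44, genes that share libraries and are not independent), and among the 6 members the gene with the lowest GC content, TOP2A (38.1%), fell the most and that with the highest, TOP3B (56.8%), rose. The 823 genes within 1 percentage point of TOP2A had a median log2 fold change of −0.19, and 8.14% of them were lower than TOP2A. After removal of the GC trend within each library, TOP2A was at −0.36 (95% CI −0.49 to −0.23, adjusted P = 0.0020 by edgeR) and TOP3B at 0.07 (adjusted P = 0.568), and 24.1% of all genes were called. With both the GC trend removed and the effective length offset, TOP2A was at −0.19 (95% CI −0.46 to 0.09, adjusted P = 0.359).

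**Figure D4:**
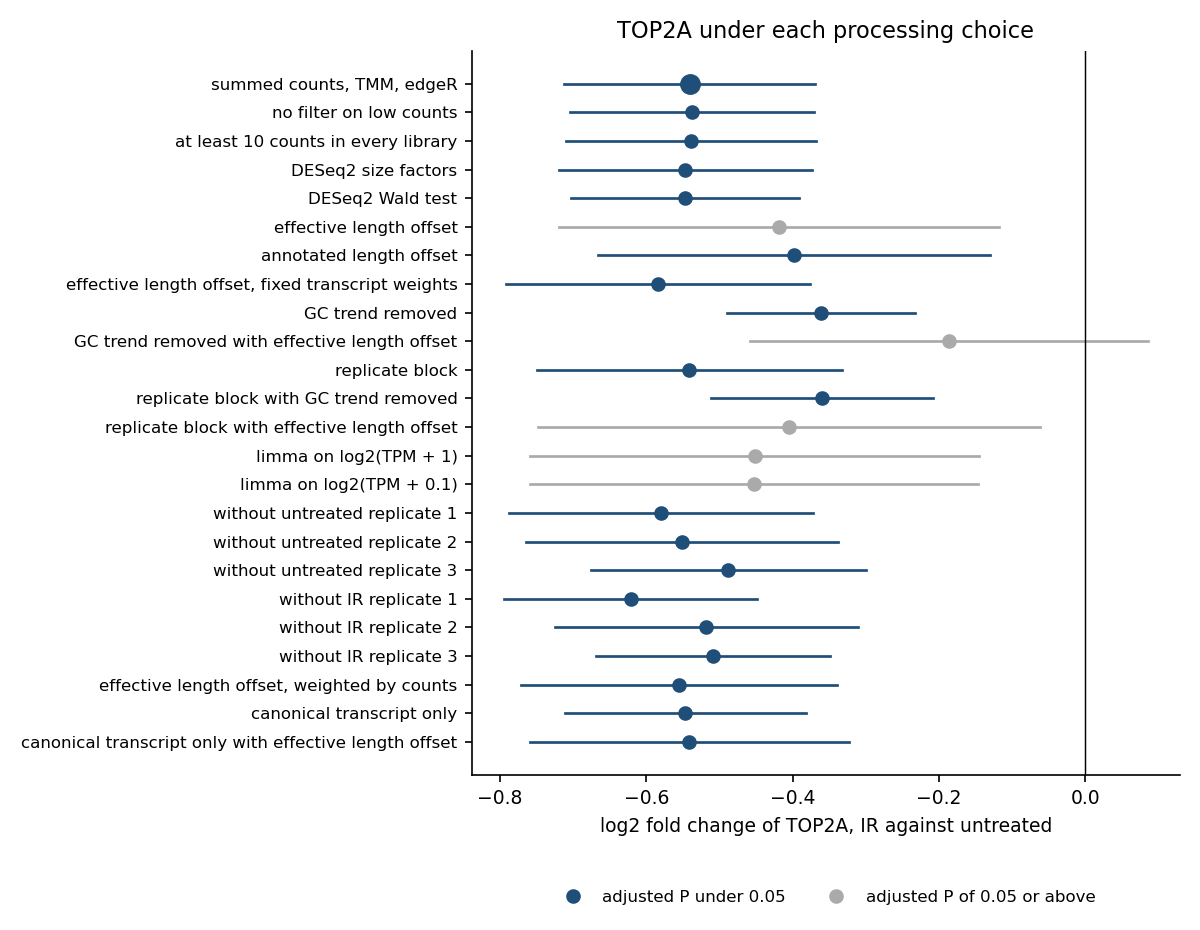
Log2 fold change of TOP2A after IR, with 95% confidence intervals, under the reported processing (large point) and 23 others. All values are below 0, and 5 of the 23 (grey), each with an effective length offset or TPM, are not below an adjusted P of 0.05.

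The other members had several transcripts that kallisto had to tell apart. TOP1-201 held 96.0% to 98.0% of the TOP1 counts. TOP1MT-201 held 60.2% to 94.7% of the TOP1MT counts, being lowest in untreated replicate 2 and highest in IR replicate 3, and TOP1MT-213, with 20.4% to 30.1% in the untreated libraries and 28.7% in IR replicate 2, was listed at 0 in IR replicates 1 and 3. From TOP1MT-201 alone the gene had a log2 fold change of 0.45 (adjusted P = 0.0351 by edgeR), against 0.11 from all transcripts. The canonical TOP2B transcript, TOP2B-201, had 869, 1464 and 739 counts in untreated libraries and 1505, 0.0225 and 3109 in IR libraries, and in IR replicate 2 the TOP2B counts stood almost wholly on TOP2B-202, a transcript annotated for nonsense-mediated decay (52.4%), and TOP2B-203 (47.5%). In the other 5 libraries these held 28.4% to 35.7% and 12.6% to 38.5%.

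TOP3A-201 held 62.3% to 75.4% of the TOP3A counts. TOP3B-201 held 31.7% to 54.6% of the TOP3B counts, and from it alone TOP3B rose by 0.55 on the log2 scale (adjusted P = 0.0131 by edgeR). In a test of transcript usage (diffSpliceDGE of edgeR), 2.73% of 10666 genes with at least 2 transcripts were called, and none of the 6 members (adjusted P = 1.00 for each, 0 at an unadjusted P under 0.05). Without IR replicate 2 TOP1MT was called (adjusted P = 0.0015), whose transcripts were divided in that library as in the untreated libraries. These P values do not show that usage was equal.

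Levels were compared between genes on the TPM scale, which is per length. In untreated cells TOP2A was highest at 345 ± 64.4 TPM (mean ± SD, n = 3), followed by TOP2B at 102 ± 9.59, TOP1MT at 81.4 ± 8.66, TOP1 at 59.1 ± 2.26, TOP3B at 27.0 ± 5.79 and TOP3A at 17.7 ± 0.361 TPM. No neighbours in this order overlapped in the untreated libraries. After IR the order was the same, with TOP2A at 250 ± 19.7 TPM, but TOP2B (93.2 ± 13.8 TPM) and TOP1MT (82.3 ± 3.44 TPM) overlapped. On the TPM scale and on CPM per kb the lower part of the order was stable and the middle was not. With CPM per kb of mean transcript length TOP1MT was above TOP2B, their ranges overlapping in both groups. With CPM per kb of the canonical transcript TOP1 was also above TOP2B, their ranges overlapping after IR. That scale used 5814 bases for TOP2B, from the later annotation, where the deposited length of the same transcript is 5358 bases. The shorter length raises TOP2B on this scale, and overlap with TOP1 was not tested with it. TOP2A stood at the top of the order and TOP3B above TOP3A at its end on all 3 of these scales. By the TPM of the canonical transcript alone, TOP3B (5.76 ± 1.17) and TOP3A (5.74 ± 0.184) overlapped in untreated libraries but not after IR. On that measure untreated TOP2B (16.8 ± 4.93 TPM) was below TOP1 (57.7 ± 2.59) and TOP1MT (42.4 ± 6.98).

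Within each type, the ratio of the paralogs was compared between groups by an exact two-sided permutation test on the log2 ratio of TPM. The ratio of TOP2A to TOP2B was 3.35 in untreated and 2.70 in IR libraries, as geometric means, a log2 difference of −0.31 with overlapping groups (exact permutation P = 0.2, adjusted over 3 ratios 0.3). Without IR replicate 2 the difference was −0.15. The log2 ratio of TOP1 to TOP1MT was −0.33, −0.50 and −0.53 in untreated and −0.65, −0.79 and −0.67 in IR libraries, so that these groups did not overlap (difference −0.25, exact permutation P = 0.1, adjusted 0.3). For TOP3A to TOP3B the difference was −0.15 (exact permutation P = 0.8, adjusted 0.8), and its sign rested on single libraries, with 0.010 without untreated replicate 2, 0.052 without IR replicate 2, −0.33 without untreated replicate 3 and −0.40 without IR replicate 3. With 3 against 3 libraries no P below 0.1 was possible, so none of the 3 ratios could be called. With CPM per kb of the canonical transcript, a length that is the same in every library, the log2 ratio of TOP2A to TOP2B was 2.11, 2.06 and 2.10 in untreated and 1.73, 1.60 and 1.76 in IR libraries, without overlap (difference −0.39, exact permutation P = 0.1). The deposited length of 5358 bases for TOP2B, in place of the 5814 used, lowers each ratio equally and leaves the difference unchanged.

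Most partners of TOP2A on mitotic chromosomes were lower after IR. Of 12 tested genes, 11 were lower after IR and none higher, where 14.5% of all tested genes were lower. The median log2 fold change was −0.45, against 0.01 over all tested genes. With the effective length offset 10 of the 12 were lower, and with the GC trend removed all 12. Under these settings 11.9% and 24.1% of all genes were called in either direction. The largest fall was that of MKI67, which keeps mitotic chromosomes apart, from 716 ± 48.4 to 335 ± 61.8 CPM (mean ± SD, n = 3), a log2 fold change of −1.10. The condensin subunits SMC2 (−0.73), SMC4 (−0.64), NCAPD3 (−0.56), NCAPG2 (−0.46), NCAPG (−0.41), NCAPD2 (−0.24) and NCAPH (−0.20) were lower. ERCC6L, which works with TOP2A on the ultrafine bridges of anaphase, went from 52.1, 54.3 and 57.3 CPM to 38.2, 39.0 and 33.0 CPM (log2 fold change −0.58, SE 0.08), with no overlap of the groups. Also lower were TOPBP1 (−0.44), a scaffold of the checkpoint kinase ATR, and the chromokinesin KIF4A (−0.35). NCAPH2 was at 0.04 (adjusted P = 0.849 by edgeR).

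Genes of the cell cycle phases in which TOP2A is made were also lower by count. Of all tested genes, 14.5% were lower and 15.5% higher. The share of all genes called in either direction was 11.9% with the effective length offset and 24.1% with the GC trend removed. Of 53 genes of G2 and M phase other than TOP2A, 3 of them (MKI67, NCAPD2 and SMC4) also on the list of its partners, 38 were lower and 1 higher, with a median of −0.39 (25 lower and 0 higher with the effective length offset, 37 and 0 with the GC trend removed). The largest falls were those of MKI67, the kinetochore proteins CENPF (−0.86) and CENPE (−0.76), and TMPO, a protein of the nuclear envelope (−0.68), and the gene that rose was JPT1 (0.24). Of 43 S phase genes, 26 were lower and 0 higher, with a median of −0.26 (13 and 0 with the offset, 22 and 0 with the GC trend removed). Among them were E2F8, a repressor of E2F targets (−0.87), WDR76 (−0.74), the cyclin CCNE2 (−0.71) and ATAD2 (−0.69). The list of 16 promoter regulators of such genes had 9 lower and 0 higher (4 and 0 with the offset, 7 and 0 with the GC trend removed) and a median of −0.22. The named changes were those of RBL1, a pocket protein (−0.65), SP1 (−0.56), SP3 (−0.53) and LIN54 (−0.52), which binds the TTTGAA element. Of the NF-Y subunits, NFYA (−0.34) and NFYB (−0.36) passed the test, and NFYC was at 0.00 (adjusted P = 0.994 by edgeR).

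**Figure D5:**
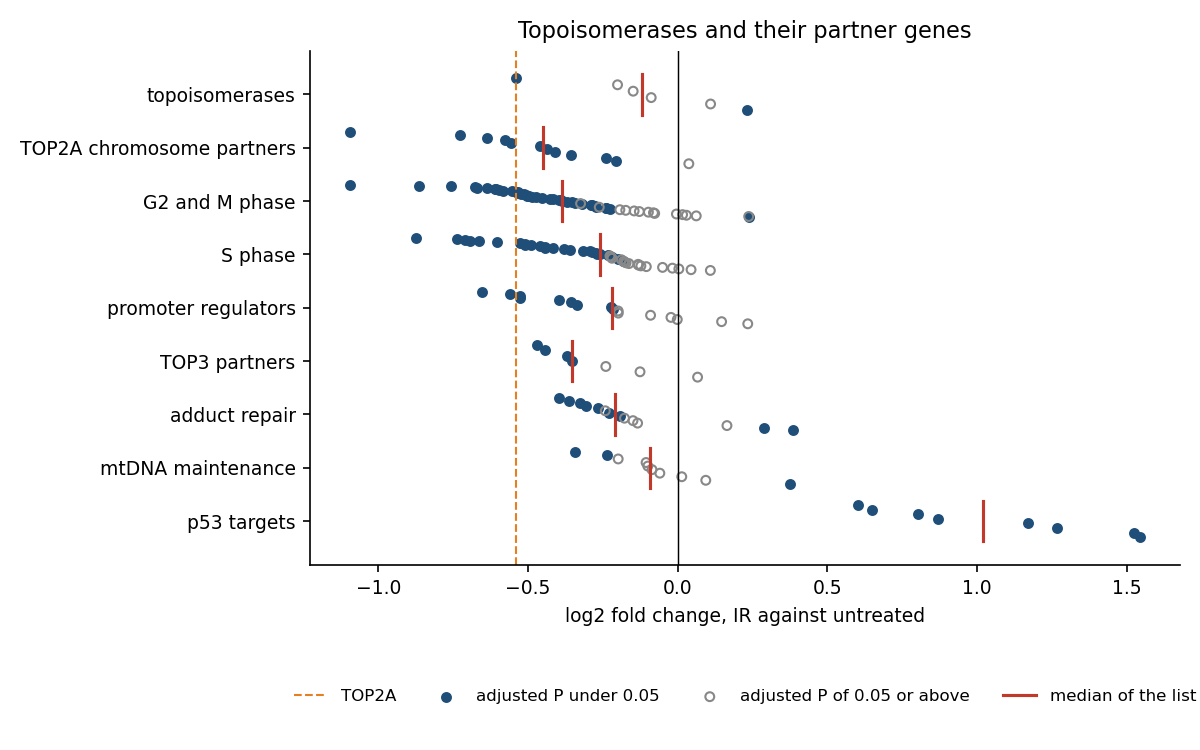
Log2 fold changes after IR of the topoisomerases and of 8 gene lists, 1 point per gene, filled where the adjusted P was below 0.05, with a red line at the median of each list and a dashed line at TOP2A. The partners of TOP2A lie around its value, with a median of −0.45, and the p53 targets lie at 0.60 or above.

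Partners of the type IA enzymes were lower or did not pass the test. Of 7 genes, 4 were lower and 0 higher, with a median of −0.35, where 14.5% of all tested genes were lower. BLM, the helicase that works with TOP3A, had 42.4, 46.2 and 44.8 CPM in untreated and 35.2, 34.3 and 29.1 CPM in IR libraries, which did not overlap (log2 fold change −0.44, SE 0.09). RMI1, a subunit of the same complex, was at −0.35, whereas RMI2 was at −0.24 with an adjusted P of 0.0811 by edgeR. TDRD3, which links TOP3B to chromatin and messenger RNA, fell by 0.37 and its partner FMR1 fell by 0.47 on the log2 scale, in the libraries where TOP3B itself was slightly higher. With the effective length offset, FMR1 alone of the 7 was called, a share near the 11.9% of all tested genes. With the GC trend removed, 2 of the 7 were called, FMR1 and BLM, a share near the 24.1% of all tested genes. The median was then −0.21, with RMI1 at −0.12 (adjusted P = 0.328) and TDRD3 at −0.21 (adjusted P = 0.158, edgeR).

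Genes that remove topoisomerases trapped on DNA moved in both directions. Of 14 genes, 7 were lower and 2 higher, with a median of −0.21 (1 lower and 0 higher with the effective length offset, 4 and 0 with the GC trend removed, 7 and 0 without IR replicate 3). Of all tested genes, 14.5% were lower and 15.5% higher. The share of all genes called was 11.9% with the offset, 24.1% with the GC trend removed and 26.1% without IR replicate 3. With the offset this list was below that share, and with the GC trend removed it was near it. The proteases FAM111A (−0.40) and SPRTN (−0.36), the nuclease factors RBBP8 (−0.32) and MRE11 (−0.31), the SUMO ligase ZNF451 (−0.27), the ubiquitin ligase RNF4 (−0.23) and PARP1 (−0.19) were lower. TEX264 (0.38), a cofactor in the removal of trapped TOP1, was among the higher genes, and with the GC trend removed it was at 0.16 (adjusted P = 0.200 by edgeR). TDP1 and TDP2, the phosphodiesterases that cleave the bond between a topoisomerase and DNA, were at −0.13 and −0.15 and did not pass the test (adjusted P = 0.247 and 0.123 by edgeR). Among 10 genes of mitochondrial DNA maintenance, the setting of TOP1MT, the DNA ligase LIG3 (−0.34) and TFAM (−0.24), which packages mitochondrial DNA, were lower, the RNA polymerase POLRMT (0.37) was higher, and 7 were not called, so that the share called was near the 30.1% of all tested genes. With the effective length offset TFAM was the 1 gene called. With the GC trend removed TFAM was at −0.075 (adjusted P = 0.399) and POLRMT at −0.00076 (adjusted P = 0.996, edgeR), while LIG3 (−0.35, adjusted P = 0.0052) and SSBP1, a binder of single-stranded mitochondrial DNA (0.19, adjusted P = 0.0366), were called. Without IR replicate 3, where 26.1% of all genes were called by edgeR, 2 of these genes were lower and 0 higher.

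The genes with the profile most like that of each member were found among 11676 candidates whose mean count reached 100, as the root mean square difference of centred log2 CPM over the 6 libraries. For TOP2A these were USP1, RLIM and BRCA1, with differences of 0.0208, 0.0272 and 0.0279 against a median of 0.306 over all candidates. DDX5, CALU and CLK4 were nearest to TOP1, and ZFAND1, DPY19L2 and HSPA5 to TOP1MT. ZNF485, NT5C2 and NAMPT were nearest to TOP2B, CDC20, PHF5A and ASB1 to TOP3A, and LSM4, TTC39C and CHCHD7 to TOP3B. All had differences below 0.03, over 6 libraries that share the contrast between the groups.

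In the GENCODE annotation of GRCh38 the genes lie at chr20:41028822-41124487 (TOP1, plus strand), chr17:40388525-40417896 (TOP2A), chr3:25597978-25664909 (TOP2B), chr17:18271428-18315007 (TOP3A), chr22:21957025-21982813 (TOP3B) and chr8:143304384-143359979 (TOP1MT), the last 5 on the minus strand. Exons of TOP1 overlap the antisense RNA PLCG1-AS1 and those of TOP3B overlap PPM1F-AS1, and neither RNA is in the transcript files, so that reads from them, if any, could not be told apart from the genes without strand. The processed pseudogenes TOP1P1 and TOP3BP1 are also not in the transcript files. Reads from them, if any, could not be told apart from the genes where the sequences are the same.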

How the data were processed

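The authors removed adaptors with fastp and assigned reads with kallisto to GENCODE release 37 (GRCh38). Each deposited file lists the transcripts of 1 library with their length, effective length, estimated count (not normalized) and the TPM that the authors derived from these. Other settings of kallisto are not given in the sources used here. The methods name a total RNA kit and the labels poly(A) RNA.

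Identifiers were looked up in GENCODE release 44, where 2460 of 161171 transcripts (1.54% to 1.80% of counts) had no entry and were dropped. The gene sums of the estimated counts were rounded, filtered by filterByExpr, scaled by TMM and tested by glmQLFTest (edgeR 4.0.16, limma 3.58.1, DESeq2 1.42.0, R 4.3.3, Python 3.11.15, pandas 2.3.3), with Benjamini–Hochberg adjustment over all 14323 tested genes. SE is the size of the log2 fold change divided by the root of F. Length offsets used the mean length of a gene per library. GC trends were removed by loess (span 0.3). Transcripts with a mean of at least 1 TPM were described. Libraries were grouped by their labels, and replicates of a group differed by more than sampling noise (chi-square per gene of 3.47 to 31.1). The scripts were tested on simulated data.

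The counts per list without IR replicate 3 were chosen after seeing the data. The members and gene lists were chosen with earlier results of these data known. Named from each list were all called genes (the 4 with the largest change in lists above 15 genes) and direct partners of a topoisomerase, and JPT1, NCAPH2, SSBP1 and the NF-Y subunits were named after their values were seen. The values of 1 called gene are not reported here. Alternatives were other filters, scalings, tests, length and GC offsets, a replicate block and leaving out each library. The scRNA-seq and imaging of the study were not analysed here.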

Additional observations from a re-analysis of the deposited data

How the results depend on the processing

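TOP2A was lower in all 23 alternatives and passed the test in 18 of them. It did not pass with the effective length offset (−0.42), with this offset and the GC trend removed (−0.19), with this offset and the replicate block (−0.40), or by limma on log2(TPM + 1) (−0.45) and log2(TPM + 0.1) (−0.45). The rise of TOP3B did not pass without a filter on low counts (0.23), with DESeq2 size factors (0.23), by the DESeq2 Wald test (0.23), with the effective length offset (0.077), the annotated length offset (0.057), fixed transcript weights (0.25), count weights (0.21), the GC trend removed (0.072), the replicate block (0.23), the block with the GC trend removed (0.074) or with the offset (0.091), or by limma (0.043 and 0.045), and was reversed with the GC trend removed and the offset (−0.10). TOP1 passed by the DESeq2 Wald test (−0.21). TOP1MT was reversed with the GC trend removed (−0.040, also −0.039 with the block) and with the offset added (−0.098), and passed from its canonical transcript alone (0.45). TOP2B was reversed under the same 3 settings (0.015, 0.016 and 0.13), and TOP3A from its canonical transcript with the offset (0.036). None of these reversed values passed the test. The count weights, the canonical transcripts and, for the effective length of TOP2A, the other weights were chosen after seeing the data. Beyond what each setting changes by construction, the causes were not tested.

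Leaving out each library in turn gave TOP2A −0.62 to −0.49 (passed in each), TOP1 −0.25 to −0.15, TOP3A −0.21 to −0.043, TOP3B 0.19 to 0.30, 1 to 2 called members, and log2 ratio differences of −0.42 to −0.15 (TOP2A to TOP2B), −0.29 to −0.19 (TOP1 to TOP1MT) and −0.40 to 0.052 (TOP3A to TOP3B). Genes higher after IR then numbered 1295 to 2114 and genes lower 1244 to 2284, against 2227 and 2080. They numbered 833 and 875 with the effective length offset, 1117 and 1219 with the annotated length, 462 and 572 with the offset and the GC trend removed, 346 and 396 with the offset and the block, 393 and 875 by limma on log2(TPM + 1), and 403 and 906 on log2(TPM + 0.1). With the block and the GC trend removed 1378 were higher. Called members were 2 as reported, 1 without a filter, with DESeq2 size factors, the annotated length, fixed weights, the GC trend removed and the replicate block with or without it, and 0 with the offset, alone or with either correction, and by limma. The order of levels held for 4 of 6 genes per kb of annotated length and for 3 per kb of the canonical transcript. Genes with changed transcript usage were 291 as reported, 69 with at least 10 counts in every library, 151 with the replicate block, and 240 to 454 without a library, the highest without untreated replicate 3.

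The groups share replicate numbers, but the deviations of same-numbered libraries from their group means correlated at −0.02, 0.01 and −0.05 across genes, so that the numbers were not taken as pairs. With the replicate block TOP2A was at −0.54 (adjusted P = 0.0057 by edgeR), and 1727 genes were higher and 1624 lower. TOP2A-203 rested on 323 to 733 counts and TOP2A on 8895 to 21305, and whether depth limited the transcripts was not tested.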
